A study of Mus musculus with 20 samples.

Results

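The genes described here are 10 genes of the inflammasome and of inflammatory cytokine signalling, out of 21315 gene symbols measured: the interleukin 1 ligands Il1a and Il1b, their receptor antagonist Il1rn, the related cytokine Il18, the tumour necrosis factor gene Tnf and its family member Tnfsf8, and the inflammasome chain Nlrp3, Pycard, Casp1 and Gsdmd. They were chosen by symbol, with earlier results of these data known. All 10 were found and passed the filter on low values in every comparison. RNA was sequenced from microglia, the resident macrophages of the brain, sorted as CD45mid CD11b+ cells from C57BL/6 mice at 9 months of age, in 20 libraries numbered as replicates of 6 groups, with animals of either sex used in the study. In 6 libraries, 3 of WT and 3 of APP-KI mice, the cells were also sorted for the Td-tomato fluorescent reporter of the C3ar1 gene (C3aR+), and in 14 libraries, 3 WT, 3 C3aRKO, 3 APP-KI and 5 APP-KI;C3aRKO, microglia were taken regardless of C3aR (all sorted). C3ar1 encodes the receptor for the complement fragment C3a. APP-KI mice carry the NL-G-F knock-in, a mutated and partly humanized App gene at its own locus, and form amyloid plaques. The C3aR+ libraries came from littermates of a cross between APP NL-G-F mice and a C3ar1 fl/fl line that carries Td-tomato on each allele, while C3aRKO mice lack C3ar1 in the whole body, so a change in them need not start in microglia.

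Inflammatory macrophages make interleukin 1 beta in steps. Signals that reach NF-kB raise transcription of Il1b and Nlrp3, and a later signal makes the NLRP3 protein assemble with the adaptor ASC (the product of Pycard) and pro-caspase 1 into an inflammasome, which cleaves pro-interleukin 1 beta and pro-interleukin 18 and the pore protein gasdermin D. The mRNA levels given here bear on the supply of these parts only, since assembly, cleavage and secretion take place on protein.

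A scaled value below is a gene's read count divided by the 75th percentile of read counts in its library, times 35.1, and it does not correct for gene length. Libraries held between 13939559 and 76608464 reads, so that 1 read was worth between 0.0132 and 0.0785. C3ar1 lay between 39.8 and 80.2 in the 8 libraries of C3aRKO and APP-KI;C3aRKO mice and between 165 and 387 in the 6 other all sorted libraries, without overlap. In the C3aR+ libraries it was 70.8, 81.0 and 37.5 in WT mice, near the values of the knockouts although these cells were sorted as C3aR-positive, and 382, 251 and 201 in APP-KI mice. The WT and APP-KI groups of C3aR+ cells thus differed, without overlap, in the gene whose reporter was used to sort them, and the part of this in the results below was not tested. Of all 20 libraries, 15 had reads in between 14560 and 16072 genes at equal depth. APP-KI replicate 4, C3aRKO replicates 1 and 2 and APP-KI;C3aRKO replicate 1 had reads in between 11793 and 12626 genes, and APP-KI replicate 5 in 21079. For some results that include these 5 libraries, but not for all, values without them are also given. All 12 defining microglial markers were detected, with summed scaled values between 10777 in APP-KI;C3aRKO replicate 1 and 33726 in WT replicate 5. The sums of other cell types reached 1270 for border macrophages, 1945 for neutrophils, 401 for astrocytes, 327 for endothelial cells and 238 for monocytes. They reached 174 for oligodendrocytes, 76.1 for T and NK cells, 63.2 for B cells, 60.8 for dendritic cells and 25.2 for neurons. Csf3r, which microglia express, lay between 810 and 1545 and gave most of the neutrophil sums.

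In the mouse annotation (GRCm38) all 10 are protein-coding genes. Il1a (chr2:129299610-129309972) and Il1b (chr2:129364570-129371139) lie close together on the minus strand of chromosome 2, and Il1rn (chr2:24336853-24351494, plus strand) lies far from them on the same chromosome. Tnf (chr17:35199381-35202007), Tnfsf8 (chr4:63831308-63861347) and Pycard (chr7:127989708-127993867) are on minus strands. Il18 (chr9:50554827-50581840), Casp1 (chr9:5298517-5307265), Nlrp3 (chr11:59541568-59566956) and Gsdmd (chr15:75862327-75867408) are on plus strands. Whether reads of introns were counted is not given in the sources used here.

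All 10 genes were measured well above the counting limit, with between 49 reads (Il1rn) and 14865 reads (Il1b) in a library. Per kilobase of exon, the median scaled value over the 20 libraries was highest for Gsdmd at 54.2, followed by Nlrp3 at 34.9, Il1b at 21.8, Il1a at 21.3, Il18 at 18.3, Pycard at 17.8, Casp1 at 15.8, Tnf at 13.8, Tnfsf8 at 10.8 and Il1rn at 1.15. These values divide by the length of all annotated exons merged, which for Pycard is 3.8 kb of a gene of little more, and 5.54 kb for Il1rn, so the order depends on that annotation. The spread over libraries was ordered differently. Tnfsf8 varied 37.1-fold between its lowest and highest library, Il1rn 9.87-fold and Il1b 9.56-fold, while Casp1 and Pycard varied 2.13-fold and 2.19-fold.

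The comparison of APP-KI with WT in C3aR+ microglia asks how these cells differ when plaques are present. In this comparison 4 of the 10 genes rose, the cytokines Tnfsf8, Il1b and Tnf and the antagonist Il1rn, and Gsdmd fell. Over all 12311 genes tested, 22.7% were called at an adjusted p under 0.05, 13% as higher and 9.71% as lower. Nlrp3, Pycard and Casp1 did not pass the test, which does not show that they were unchanged. The median log2 fold change was 0.59 over the 10 genes and -0.17 over all genes tested. Since the 10 genes were chosen with earlier results of these data known, their median and counts are a description only. Groups did not overlap for 6 of the 10 genes, against 43.5% of all genes, and 6 had an unadjusted p under 0.05, against 37.6%.

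Tnfsf8 encodes CD30 ligand, a membrane cytokine of the tumour necrosis factor family. Its scaled values were 10.1, 7.80 and 5.19 in WT and 46.2, 66.0 and 85.2 in APP-KI. The groups were far apart, with no overlap. The log2 fold change was 2.94 (SE 0.30, n = 3 per group, adjusted p = 0.00023, limma), and the gene was called under all 15 alternative settings. The study placed Tnfsf8 in a gene module that it chose on these samples, so its rise here is not independent evidence of a direction.

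Il1b encodes the precursor of interleukin 1 beta. In C3aR+ microglia its scaled values were 29.1, 24.4 and 33.2 in WT and 62.3, 145 and 165 in APP-KI. The lowest APP-KI library thus lay above the highest WT library, and the 3 APP-KI libraries differed more among themselves than the WT libraries did. The log2 fold change was 1.96 (SE 0.32, n = 3 per group, adjusted p = 0.0023, limma).

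Il1rn encodes the interleukin 1 receptor antagonist, which binds the receptor without signalling. Its scaled values were low, 2.92, 2.88 and 1.74 in WT and 8.10, 11.5 and 12.2 in APP-KI. The groups did not overlap, and the log2 fold change was 1.72 (SE 0.40, n = 3 per group, adjusted p = 0.013, limma). The agonist and its antagonist thus rose in the same libraries. The median of Il1b per kilobase of exon went from 15.2 in WT to 76.0 in APP-KI, and that of Il1rn from 0.519 to 2.08, so the agonist mRNA stayed above that of the antagonist in both groups.

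Tnf had scaled values of 22.4, 10.1 and 11.2 in WT and 25.4, 31.8 and 35.4 in APP-KI. The groups did not overlap, but WT replicate 1 lay near the lowest APP-KI library. The log2 fold change was 1.10 (SE 0.32, n = 3 per group, adjusted p = 0.033, limma), and the call held in 7 of 15 alternative settings. Without WT replicate 2 or 3 or APP-KI replicate 2 or 3 the log2 fold change was 0.90, 0.97, 1.08 or 1.00 with an adjusted p of 0.11, 0.10, 0.086 or 0.085 (limma).

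Gsdmd encodes gasdermin D, the pore of pyroptotic cell death and of interleukin 1 release. It was called as lower in these cells, with scaled values of 137, 170 and 164 in WT and 103, 127 and 106 in APP-KI. The highest APP-KI library lay below the lowest WT library. The log2 fold change was -0.48 (SE 0.13, n = 3 per group, adjusted p = 0.029, limma). This call was weak, as it held in 5 of 15 alternative settings and was lost with median ratio scaling at -0.34 (adjusted p = 0.12, limma). That scaling moved the median of all genes from -0.17 to -0.03 and the calls from 1602 higher and 1196 lower to 1844 higher and 605 lower. Without WT replicate 2 or 3 or APP-KI replicate 1 or 3 the value was -0.43, -0.45, -0.42 or -0.45 and the adjusted p was 0.11, 0.10, 0.077 or 0.060 (limma).

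The remaining genes did not pass the test in C3aR+ microglia. Nlrp3, the sensor, had scaled values of 129, 153 and 74.9 in WT and 127, 196 and 246 in APP-KI, which overlapped, with a log2 fold change of 0.68 (SE 0.28, adjusted p = 0.11, limma). It passed without APP-KI replicate 1, at 0.94 (adjusted p = 0.043, limma), and by DESeq2 (adjusted p = 0.026). Casp1, the protease, had scaled values between 18.3 and 22.3 in WT and between 20.7 and 30.5 in APP-KI, and Pycard, the adaptor, between 53.2 and 79.0 and between 47.3 and 70.6. Their log2 fold changes were 0.33 and -0.13, with approximate intervals of 2 SE on either side from -0.13 to 0.80 and from -0.53 to 0.27. Il1a, the other interleukin 1 ligand, which also acts as an alarm signal of dying cells, had scaled values of 50.4, 21.9 and 34.1 in WT and 46.2, 40.4 and 58.0 in APP-KI, which overlapped, and did not pass at 0.49 (SE 0.28, adjusted p = 0.23, limma). Il18 had scaled values of 19.1, 25.7 and 25.5 in WT and 18.8, 14.0 and 15.2 in APP-KI, groups that just failed to overlap, with a log2 fold change of -0.52 (SE 0.25, adjusted p = 0.16, limma).

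**Figure D1:**
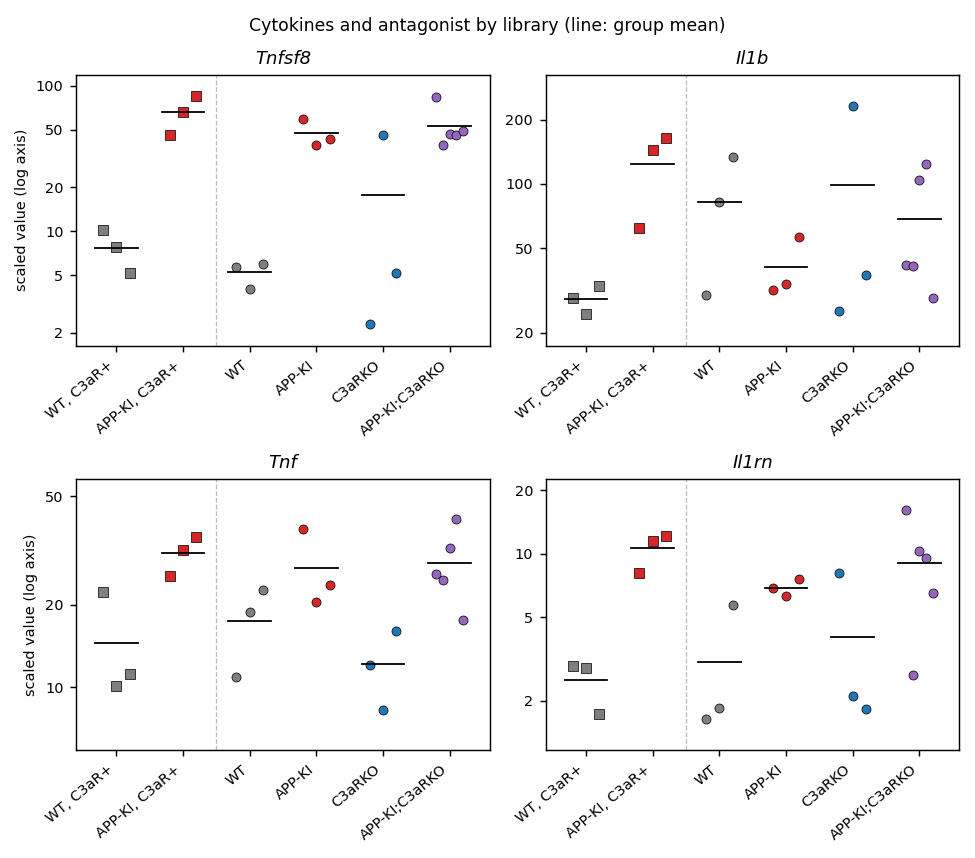
Scaled values of Tnfsf8, Il1b, Tnf and Il1rn on a log axis, 1 point per library, in the C3aR+ groups (squares, left of the dashed line) and the all sorted groups (circles), with a line at each group mean. Tnfsf8 was high in every library with the APP knock-in and low in the others except 1 C3aRKO library at 45.7, whereas Il1b separated WT from APP-KI in the C3aR+ cells and not in the all sorted cells.

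The promoters of the 3 ligands that rose are shown because these genes moved together in C3aR+ microglia. Each line gives the 250 bases before the annotated start from RefSeq (GRCm38.p6), read 5′ to 3′ on the strand of the gene. Capitals mark the letters TATAAA, the core of a TATA box.
Il1b, chr2:129371140-129371389, minus strand: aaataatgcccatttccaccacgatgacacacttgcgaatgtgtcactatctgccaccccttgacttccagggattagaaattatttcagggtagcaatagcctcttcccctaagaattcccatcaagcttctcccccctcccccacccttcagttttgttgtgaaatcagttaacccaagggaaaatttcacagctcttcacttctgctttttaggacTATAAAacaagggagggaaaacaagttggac
Tnf, chr17:35202008-35202257, minus strand: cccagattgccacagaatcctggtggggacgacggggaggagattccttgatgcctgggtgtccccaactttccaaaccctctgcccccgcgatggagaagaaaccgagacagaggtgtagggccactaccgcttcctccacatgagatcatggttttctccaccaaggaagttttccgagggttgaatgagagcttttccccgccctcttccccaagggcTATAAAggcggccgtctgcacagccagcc
Tnfsf8, chr4:63861285-63861534, minus strand: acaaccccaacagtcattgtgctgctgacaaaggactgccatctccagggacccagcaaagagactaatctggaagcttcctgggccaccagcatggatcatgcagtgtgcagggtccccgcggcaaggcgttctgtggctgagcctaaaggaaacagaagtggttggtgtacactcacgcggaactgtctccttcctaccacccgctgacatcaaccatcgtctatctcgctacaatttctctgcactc

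The letters TATAAA stood 31 to 26 bases before the start of Il1b and 29 to 24 bases before that of Tnf, and Il1a held them 32 to 27 bases before its start. The window of Tnfsf8 held no such match. Windows of 300 bases, 250 before and 50 after the start, were found for 9 of the 10 genes (12 windows, not for Gsdmd) and searched on both strands for 5 motifs. TATAAA was present in 5 of the 12 windows and in 13.6% of all 32851 promoter windows. TGANTCA, the letters bound by AP-1, was found in Il1a and in 1 window of Il1rn (7.81% of all windows), ACGTG, the core bound by hypoxia-inducible factors, in Casp1 and 1 window of Nlrp3 (19.6%), and GAGGAAGT, bound by PU.1, in Pycard (3.20%). The kappa-B consensus was found in 1 window of Nlrp3 (4.51%). None of the 5 was found in the window of Tnfsf8, which says only that these letters are not in those 300 bases. No match of 1 motif overlapped a match of another.

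The same comparison was made in microglia sorted regardless of C3aR, in other libraries and with a fit of another form, so the counts of calls are not compared between sorts. Of the 10 genes, 1 passed the test, Tnfsf8, which rose, and 0 fell. Over all 12402 genes tested, 4.14% were called, 2.22% as higher and 1.93% as lower. The median log2 fold change was -0.15 over the 10 genes and -0.01 over all genes. Groups did not overlap for 6 of the 10 genes, against 29.3% of all genes, and 2 (Tnfsf8 and Gsdmd) had an unadjusted p under 0.05, against 12.4%.

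Tnfsf8 had scaled values of 5.72, 3.98 and 5.99 in WT and 59.4, 39.2 and 42.7 in APP-KI. Each APP-KI library exceeded each WT library several times over, and the log2 fold change of 2.81 (SE 0.68, n = 3 per group, adjusted p = 0.030, limma) was close to that of the C3aR+ cells. Within the series of libraries numbered 24 the difference was 2.88 and within series 26 it was 2.89. Series 24 held 2 APP-KI libraries and 1 WT library, and series 26 held 1 and 2, so each value rests on few libraries. The SE comes from the spread over all 14 libraries. Leaving out WT replicates 4, 5 or 6 or APP-KI replicates 4, 5 or 6 gave values of 2.71, 2.73, 2.96, 2.71, 2.98 and 2.70, with adjusted p of 0.17, 0.095, 0.059, 0.097, 0.051 and 0.15 (limma), so that the call was lost each time. Without the 5 libraries that stand apart, which left APP-KI replicate 6 as the only APP-KI library, the value was 2.81.

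In all sorted microglia Il1b did not separate the genotypes. Its scaled values were 30.1, 82.2 and 134 in WT and 31.8, 34.0 and 56.7 in APP-KI. The WT libraries spread over the whole range of the APP-KI libraries and beyond, and the log2 fold change was -0.60 (SE 0.73, adjusted p = 0.92, limma). It was 0.12 within series 24 and -0.88 within series 26, which held both high WT libraries. WT replicate 6, the highest, also had the largest sum of neutrophil markers of all 20 libraries (1945, with Csf3r, which microglia express, giving most of each sum). WT replicate 5, the other high WT library, had the smallest such sum of all 20 (928). C3aRKO replicate 2, with the highest Il1b of all (233), had 1076. The part of neutrophils in these values was not tested.

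The other cytokines did not pass the test in all sorted microglia. Tnf had scaled values of 10.9, 18.9 and 22.8 in WT and 37.8, 20.5 and 23.6 in APP-KI, which overlapped, with a log2 fold change of 0.73 (SE 0.37, adjusted p = 0.46, limma). Il1rn had 1.64, 1.86 and 5.70 in WT and 6.84, 6.29 and 7.59 in APP-KI, without overlap, and a log2 fold change of 1.13 (SE 0.63, adjusted p = 0.56, limma). These differences pointed the same way as in the C3aR+ cells, within wide errors. Il1a lay between 53.3 and 54.9 in WT and between 31.1 and 51.4 in APP-KI, with -0.50 (SE 0.27, adjusted p = 0.54, limma), and Il18 between 18.9 and 23.7 and between 14.4 and 18.1, with -0.46 (SE 0.32, adjusted p = 0.70, limma).

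The inflammasome chain likewise did not pass. Gsdmd had scaled values of 170, 150 and 154 in WT and 114, 121 and 109 in APP-KI, without overlap. Its log2 fold change of -0.53 (SE 0.22) was near that in the C3aR+ cells, with an unadjusted p under 0.05 and an adjusted p of 0.32 (limma). Nlrp3 had 132, 177 and 196 in WT and 251, 112 and 111 in APP-KI, where replicate 4 stood far above the others. The log2 fold change of Nlrp3 was -0.24 (SE 0.27, adjusted p = 0.90, limma). APP-KI replicate 4 is 1 of the 5 libraries that stand apart, with reads in 12626 genes at equal depth. It also had the highest sum of 28 genes known to rise in warm tissue dissociation, 12503 against between 4788 and 11226 in the 19 others. The next highest Nlrp3, 246 in APP-KI C3aR+ replicate 3, came with a sum of 7496. The part of these traits in the values of Nlrp3 was not tested. Casp1 had 22.5, 24.8 and 22.2 against 29.1, 27.8 and 26.6, without overlap, with 0.34 (SE 0.26, adjusted p = 0.77, limma). Pycard lay between 60.7 and 71.9 in WT and between 41.4 and 78.4 in APP-KI.

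**Figure D2:**
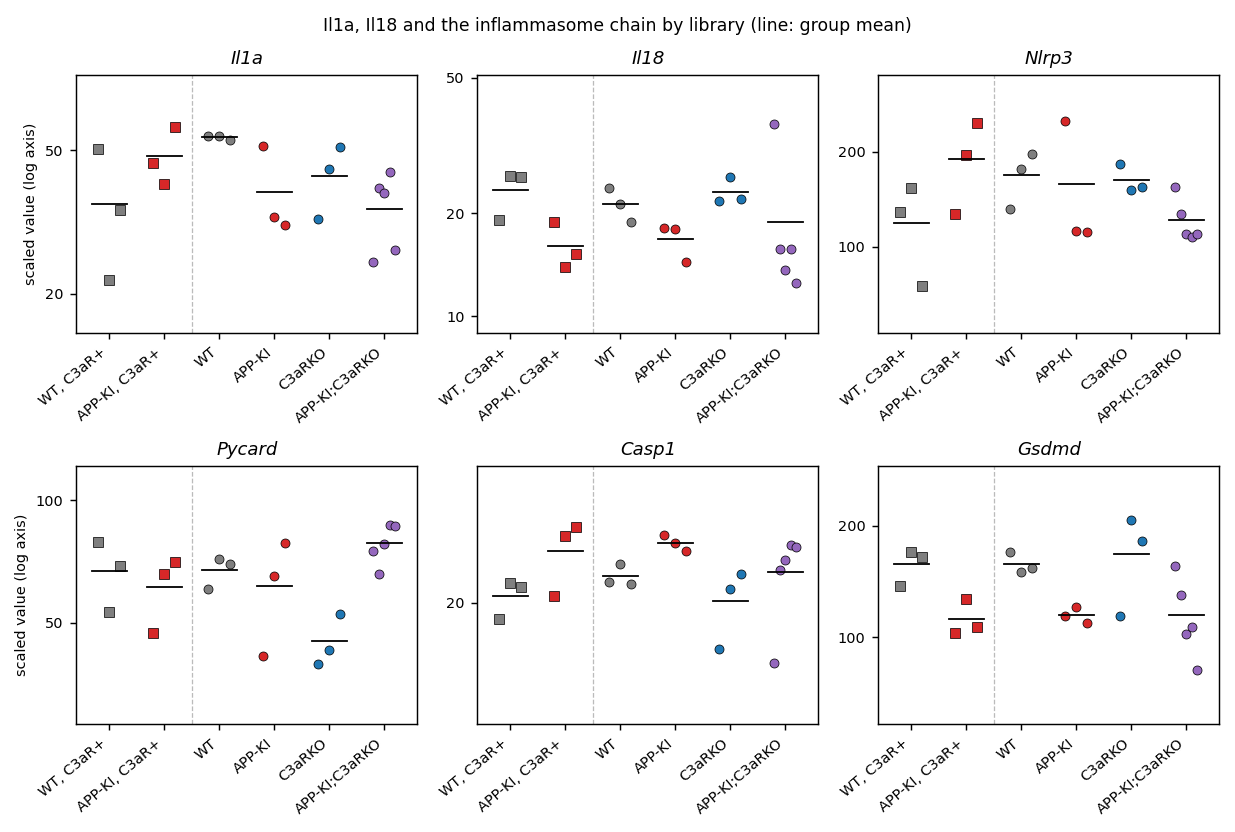
Scaled values of Il1a, Il18, Nlrp3, Pycard, Casp1 and Gsdmd on a log axis, 1 point per library, in the C3aR+ groups (squares, left of the dashed line) and the all sorted groups (circles), with a line at each group mean. Gsdmd was lower in the 3 APP-KI libraries than in the 3 WT libraries of each sort. The mean of Pycard was lowest in the C3aRKO group, with libraries between 39.6 and 52.7.

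Whether the APP-KI difference depended on the sort was tested in the 12 libraries of WT and APP-KI mice. No gene passed by limma, among the 10 or among all 12583 tested (0 called, 1480 or 11.8% at an unadjusted p under 0.05, 0 by edgeR and 120 by DESeq2), and 2 of the 10 genes had an unadjusted p under 0.05, Il1b and Il1a. For Il1b the APP-KI difference was 2.76 larger on the log2 scale in C3aR+ than in all sorted microglia (SE 0.66, adjusted p = 0.39, limma; adjusted p = 0.0010, DESeq2). Its adjusted p ran from 0.0010 to 1.00 over 22 alternatives, and it was called in 1. For Il1a the difference was 1.02 (SE 0.38, adjusted p = 0.39, limma), and for Tnfsf8 it was -0.01 (SE 0.41). Between sorts, Il1b was 1.51 higher in C3aR+ cells of APP-KI mice (SE 0.47, adjusted p = 0.82, limma) and -1.25 in WT mice (SE 0.47, adjusted p = 1.00, limma), with 0 of all genes called in either. In WT mice 1 of the 10 genes, Il1a, had groups without overlap, lower in C3aR+ cells (23.0% of all genes), and 2, Il1a and Il1b, had an unadjusted p under 0.05 (4.39%). In APP-KI mice 2, Il1b and Il1rn, had groups without overlap, higher in C3aR+ cells (6.07%), and 1, Il1b, had an unadjusted p under 0.05 (5.22%). The sort, the reporter line and the series of library numbers go together and cannot be told apart.

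The next question is whether these genes depend on C3aR itself. Loss of C3ar1 without plaques left 0 of the 10 genes called, where 0.00806% of all genes passed (1 gene, with 344 or 2.77% at an unadjusted p under 0.05). By edgeR and DESeq2 0 of the 10 were called as well. The closest was Pycard, with scaled values of 60.7, 71.9 and 69.7 in WT and 39.6, 43.0 and 52.7 in C3aRKO. Every C3aRKO library lay below every WT library, with a log2 fold change of -0.47 (SE 0.18, adjusted p = 0.99, limma). The difference was -0.55 within series 24 (2 C3aRKO libraries and 1 WT) and -0.42 within series 26 (1 and 2). Groups failed to overlap for 2 of the 10 genes, against 18.5% of all genes. Il1a also lay lower without overlap, between 32.3 and 51.1 in C3aRKO against 53.3 to 54.9 in WT, with -0.34 (SE 0.27, adjusted p = 0.99, limma). Il1rn had 8.13, 2.10 and 1.82 in C3aRKO, so that 1 library stood above all 3 WT libraries and the others lay among them. Nlrp3, Casp1, Gsdmd and Il18 had differences between -0.12 and -0.02. Their intervals of 2 SE were wide, for example from -0.48 to 0.42 for Gsdmd and from -0.65 to 0.61 for Il18, so equal levels were not shown. The spread also limits what can be said of the rest. For Tnf the difference was -0.37 (interval from -1.10 to 0.36) and for Tnfsf8 it was 0.54 (interval from -0.82 to 1.90). For Il1b the difference was 0.02 with an interval of 2 SE from -1.44 to 1.47, since its C3aRKO values were 25.4, 233 and 37.4.

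C3aRKO replicate 2 held the highest Il1b of all 20 libraries, at 233, and a Tnfsf8 of 45.7, at the level of the APP-KI libraries, where the other C3aRKO libraries had 2.29 and 5.13. Gpnmb and Cst7, which rise in microglia at plaques, were low in it (0.910 and 2.20, against at least 264 and 279 in every library with the APP knock-in). Its monocyte and B cell marker sums were the highest of the 20 libraries (238 and 63.2), and its T and NK cell sum was 69.9, of 0.677 to 76.1 in all. The part of these cells in its values was not tested.

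In mice with plaques, loss of C3ar1 again left 0 of the 10 genes called, with 0.00806% of all genes past the test (1 gene, 147 or 1.19% at an unadjusted p under 0.05, and 1 gene each by edgeR and DESeq2) and 0 of the 10 at an unadjusted p under 0.05. Groups overlapped for all 10 genes, where 1.61% of all genes had groups without overlap. Il1b had scaled values of 41.9, 41.2, 104, 125 and 29.2 in APP-KI;C3aRKO, around the APP-KI values of 31.8, 34.0 and 56.7, with a difference of 0.39 (interval of 2 SE from -0.91 to 1.68). Tnfsf8 had 83.0, 39.3, 46.3, 46.0 and 48.5, with a difference of 0.23 (interval from -0.97 to 1.44). Tnf had 25.9, 24.7, 32.2, 41.3 and 17.6, with a difference of -0.04 (interval from -0.69 to 0.61). Nlrp3, which had a range of 111 to 251 in APP-KI, lay between 107 and 155. Il1rn had 16.2, 2.64, 10.3, 9.57 and 6.47, on either side of the APP-KI values, with a difference of 0.14 (interval from -0.97 to 1.26). The differences of the other members lay between -0.33 for Casp1 and 0.30 for Pycard. These intervals leave room for changes in either direction, so equal levels were not shown.

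Without C3aR, the effect of the APP knock-in could be read against C3aRKO mice. Here 2 of the 10 genes rose, Tnfsf8 and Pycard, and 0 fell, where 6.93% of all genes were called, 3.96% as higher and 2.98% as lower. Groups did not overlap for 2 of the 10 genes (Pycard and Tnf), against 13.7% of all genes, and 4 (with Tnfsf8 and Gsdmd) had an unadjusted p under 0.05, against 20.4%. Tnfsf8 rose by a log2 fold change of 2.50 (SE 0.60, n = 3 and 5, adjusted p = 0.021, limma) although the groups overlapped through C3aRKO replicate 2. It was 2.23 within series 24, which holds that library, and 2.97 within series 26, which holds only 1 C3aRKO library. Without C3aRKO replicate 1 it was 1.68 (adjusted p = 0.071, limma) and without C3aRKO replicate 3 it was 2.20 (adjusted p = 0.11, limma).

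Pycard had scaled values of 39.6, 43.0 and 52.7 in C3aRKO and 74.9, 65.9, 78.2, 86.8 and 86.4 in APP-KI;C3aRKO. All 5 APP-KI;C3aRKO libraries lay above all 3 C3aRKO libraries, with a log2 fold change of 0.70 (SE 0.16, n = 3 and 5, adjusted p = 0.015, limma). The difference was 0.75 within series 24 and 0.66 within series 26, which holds only 1 C3aRKO library. It was 0.64 without the 5 libraries that stand apart, where C3aRKO replicate 3 was the only C3aRKO library. It lost its call without C3aRKO replicate 3, at 0.71 (adjusted p = 0.058, limma). The group means of Pycard in WT and APP-KI mice were 67.4 and 61.6, and that of C3aRKO mice was 45.1. C3aRKO against WT did not pass the test (adjusted p = 0.99, limma). The libraries with reads in the fewest genes had 39.6 and 43.0 (C3aRKO), 41.4 (APP-KI) and 74.9 (APP-KI;C3aRKO), and their part was not tested. The test of whether the C3ar1 knockout acts differently with and without plaques gave 0.76 for Pycard (SE 0.25, adjusted p = 1.00, limma), and no gene of 12402 passed it by limma (203 or 1.64% at an unadjusted p under 0.05, 1 of them among the 10 genes; 0 called by edgeR and 1 by DESeq2).

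Tnf came close in the same comparison, with 12.05, 8.27 and 16.1 in C3aRKO and 25.9, 24.7, 32.2, 41.3 and 17.6 in APP-KI;C3aRKO. The groups did not overlap, and the log2 fold change was 1.06 (SE 0.33, adjusted p = 0.066, limma). It passed without APP-KI replicate 4 (1.04, adjusted p = 0.043, limma) and without APP-KI;C3aRKO replicate 5 (1.23, adjusted p = 0.033, limma), and by DESeq2 (adjusted p = 0.013). Gsdmd had 114, 207 and 182 in C3aRKO and 155, 130, 102, 107 and 82.0 in APP-KI;C3aRKO, with -0.47 (SE 0.20, adjusted p = 0.20, limma). Without C3aRKO replicate 1 it passed at -0.75 (adjusted p = 0.013, limma). Without the 5 libraries that stand apart, which left 1 C3aRKO library, the values were -0.88 for Gsdmd, -0.63 for Il18 and 1.69 for Il1rn. APP-KI replicate 4 enters this contrast only through the shared estimate of the spread.

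**Figure D3:**
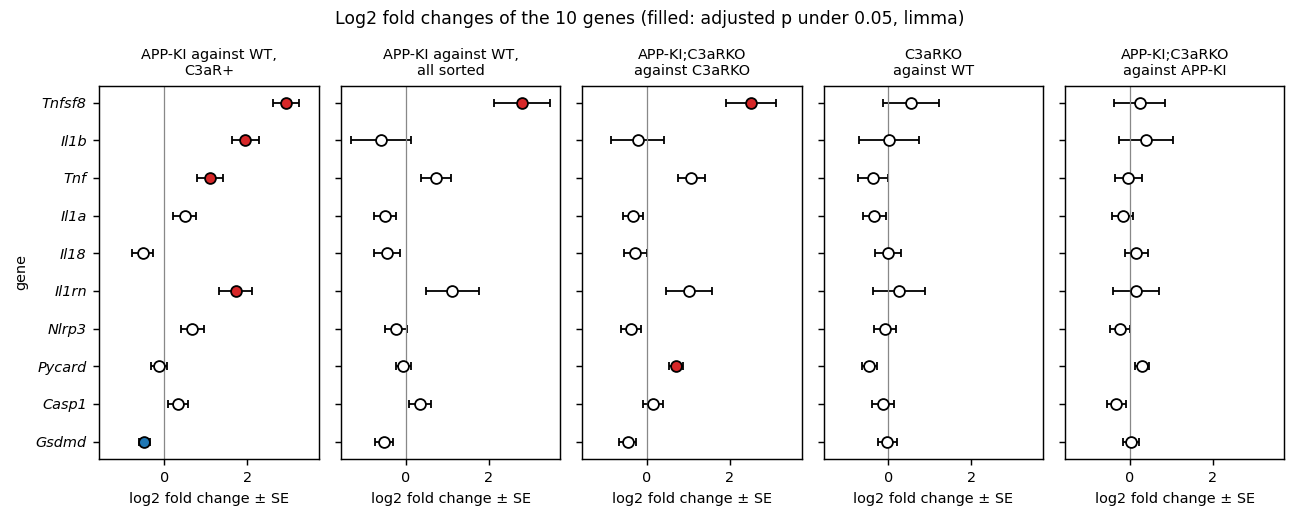
Log2 fold changes of the 10 genes in 5 comparisons (points) with their standard errors (bars). Filled points passed an adjusted p under 0.05 by limma: 5 genes in C3aR+ microglia (Tnfsf8, Il1b, Tnf, Il1rn and Gsdmd), 1 in all sorted APP-KI against WT (Tnfsf8), 2 in APP-KI;C3aRKO against C3aRKO (Tnfsf8 and Pycard) and 0 in both comparisons of C3ar1 loss.

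The other genes of the pathway, 95 found of a list of sensors, caspases, receptors, ligands and NF-kB signalling genes, moved in both directions in C3aR+ microglia. Of 71 tested, 12 rose and 13 fell, with a median log2 fold change of -0.12 against -0.17 over all genes. With median ratio scaling 12 rose and 8 fell, and none of the genes named here changed its sign. Il1r1, the signalling receptor for interleukin 1, went from a mean scaled value of 2.12 ± 0.725 (SD, n = 3) in WT to 22 ± 4.87 in APP-KI, with a log2 fold change of 2.89 (adjusted p = 0.00069, limma). Il18rap, the accessory chain of the interleukin 18 receptor, rose by 1.56 (adjusted p = 0.011, limma) and Il1rl1, the interleukin 33 receptor, by 0.88 (adjusted p = 0.020, limma), so that 3 of 9 receptors and inhibitors rose and 0 fell. The other 6 had log2 fold changes between -0.48 and 0.42. Il1r1 is also made by endothelial cells, whose 6 markers summed to between 46.5 and 91.7 in WT and between 170 and 327 in APP-KI in the C3aR+ libraries. Flt1 alone carried this sum, with a log2 fold change of 3.75, while the other 5 had values between -2.09 and -0.66, of which Pecam1 passed the test. Their part in the result was not tested.

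Among the cytokines outside the 10 genes, Osm (oncostatin M) rose by 1.45 (adjusted p = 0.0010, limma), while Il6 and Il16 fell by 1.44 and 0.93 (adjusted p = 0.040 and 0.00040, limma). With median ratio scaling Il6 was no longer called (adjusted p = 0.058, limma). Tnfsf13b, the B cell survival factor BAFF, rose by 1.02 (adjusted p = 0.012, limma), the only call among 6 tested ligands of the tumour necrosis factor family. No other ligand of the interleukin 1 family, Il33 included, reached the filter on low values. The second receptor for tumour necrosis factor, Tnfrsf1b, fell by 0.67 (adjusted p = 0.0032, limma).

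The other sensors and partners of inflammasomes were divided, with 2 of 13 higher and 3 lower. Nlrc4, the inflammasome protein that responds to bacterial flagellin, fell by 1.42 (adjusted p = 0.039, limma), and Naip2, a protein that works upstream of it, rose by 0.52 (adjusted p = 0.022, limma). Txnip, a partner of NLRP3, fell by 0.82 (adjusted p = 0.00086, limma), and P2rx7, the ATP-gated channel whose opening is a classical trigger of NLRP3, fell by 0.39 (adjusted p = 0.032, limma). With median ratio scaling Nlrc4 and P2rx7 were no longer called (adjusted p = 0.056 and 0.18, limma). Of 9 other caspases and genes of membrane rupture, 0 rose and 2 fell, among them Casp8, the initiator caspase of death receptors, by 0.64 (adjusted p = 0.0026, limma).

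Genes of signalling to NF-kB were divided too, with 5 of 21 higher and 5 lower. Nfkbiz and Tnfaip3, both targets of the pathway, the latter also its brake A20, rose by 1.14 and 1.00 (adjusted p = 0.015 and 0.0013, limma). Myd88 and Traf6, the adaptor and the ubiquitin ligase that carry the signal from interleukin 1 and Toll-like receptors, fell by 0.95 and 0.79 (adjusted p = 0.0025 and 0.0062, limma). Of 28 genes known to rise during warm dissociation, 8 rose, among them Ccl3 and Ccl4, and 6 fell. Their sum ranged from 6036 to 8926 in WT and from 6305 to 7496 in APP-KI, so the sums overlapped.

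Against 2.22% of all genes higher and 1.93% lower, 0 of 72 tested pathway genes rose and 5 fell in all sorted APP-KI against WT. They were Il16 by 1.19, Txnip by 1.08, Tnfrsf1b by 0.88, Rel by 0.66 and P2rx7 by 0.65 (adjusted p between 0.021 and 0.049, limma), and each of these 5 fell in the C3aR+ cells as well. The 2 comparisons share no libraries. In APP-KI;C3aRKO against C3aRKO 0 rose and 3 fell, against 3.96% and 2.98% of all genes. The 3 were Nlrp1b by 0.94, Rel, an NF-kB subunit, by 0.90 and P2rx7 by 0.52 (adjusted p of 0.030, 0.00065 and 0.032, limma). With median ratio scaling P2rx7 was no longer called here (adjusted p = 0.054, limma), nor was Tnfrsf1b in all sorted APP-KI against WT (adjusted p = 0.064, limma).

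**Figure D4:**
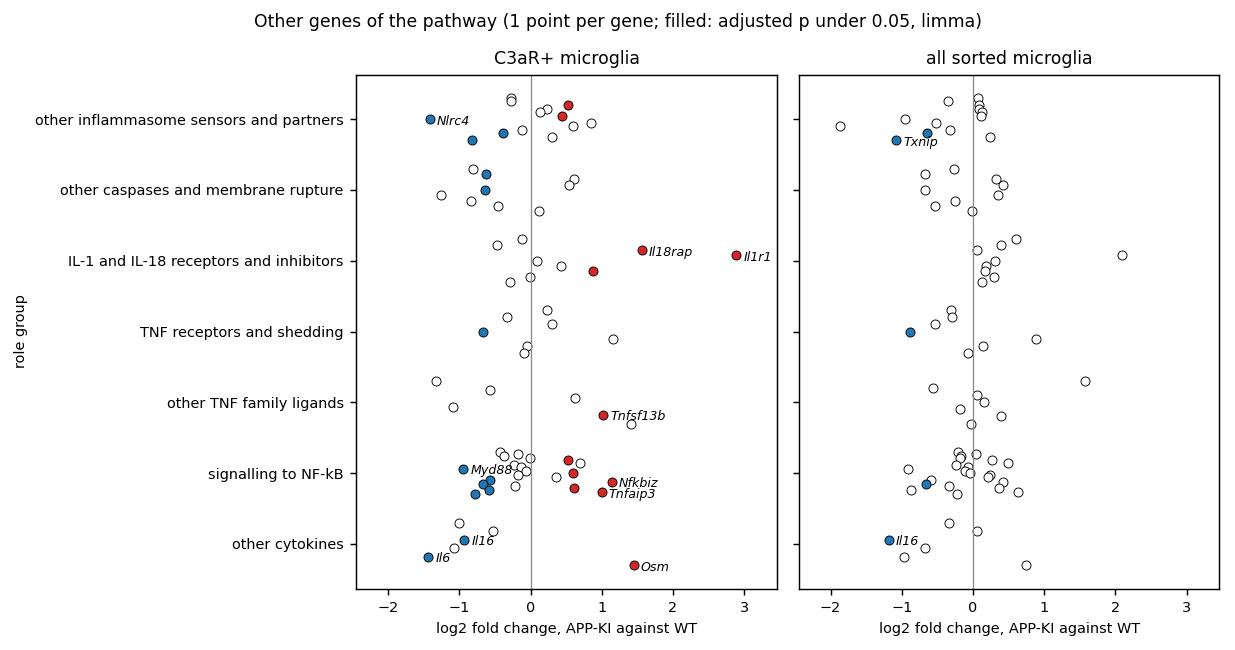
Log2 fold changes of APP-KI against WT for the other pathway genes, 1 point per gene, by role group, in C3aR+ microglia (left) and all sorted microglia (right). Filled points passed an adjusted p under 0.05 by limma, 12 higher (red) and 13 lower (blue) on the left and 0 higher and 5 lower on the right, and names are given where the log2 fold change of a filled point exceeded 0.9 in size.

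Markers of other cells moved in the same comparison. In C3aR+ microglia, 5 of 10 border macrophage markers fell, Mrc1, Cd163, Lyve1, Cbr2 and F13a1, and their sum went from between 498 and 751 in WT to between 200 and 423 in APP-KI. Of 9 neutrophil markers tested 1, Csf3r, rose, with sums between 954 and 1375 in WT and between 1411 and 1439 in APP-KI. None of the 7 monocyte markers tested was called (sums between 65.4 and 138 and between 77.7 and 167). Of the other neutrophil markers, S100a9, Camp and Ngp had reads in all 20 libraries, with medians of 34.7, 4.09 and 34.8, and Ly6g had none in 7. Of 12 microglial markers 5 fell (sums between 27052 and 29001 in WT and between 19279 and 22990 in APP-KI). Of 4 dendritic cell markers tested Clec9a rose by 1.97 and Cd209a fell by 2.31 (sums between 36.4 and 58.9 and between 21.1 and 24.6). Of 4 oligodendrocyte markers tested Mbp rose by 1.07 (sums between 86.5 and 114 and between 156 and 169), and of 6 astrocyte markers tested Gfap rose by 2.58 and Slc1a3 fell by 0.55 (sums between 301 and 401 and between 218 and 276). Fewer cells of a type and less RNA per cell cannot be told apart in such pooled RNA. The part of these cells in the values of Il1b, Tnf and Il1rn, which some of these cell types also make, was not tested.

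The genes whose pattern over the 20 libraries lay nearest to a member are given as a description, by the root mean square difference of centred log2 values. For Tnfsf8 these were Rai14 (0.291), Prr15 (0.445) and Gas2l3 (0.500), against its own spread of 1.55. For Tnf they included Gnl1 (0.315) and Osm (0.334), against 0.625. For Il1b the nearest genes, Rpl13 (0.659), Trem1 (0.683) and Gm6377 (0.687), lay far from it, against its own spread of 0.993.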

How the data were processed

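The authors sequenced libraries made with a total RNA kit that carries molecular identifiers, on a NovaSeq, and aligned reads to mm10 with TopHat. The processing notes also name cutadapt, featureCounts and DESeq2, and whether identifiers or strand were used in counting is not given in the sources used here. The deposited signal, which the authors call FPKM, is each gene's read count over its library's 75th percentile, with no correction for length. Whole reads (within 0.01) were recovered for 100% of values. Values were multiplied by 35.1 and tested as log2(scaled value + 1), where the mean was at least 1, with limma 3.58.1 (mean-variance trend, Benjamini-Hochberg over all genes tested, adjusted p under 0.05). Fold changes are on that scale, which understates changes of low genes. Rows of the 10 symbols listed more than once were summed. The 6 C3aR+ libraries were fitted alone, the 14 all sorted libraries together with the series of library numbers (24 or 26) as a term, and sorts were compared in 12 libraries without one. The labels number the libraries as replicates without saying that each is a separate mouse, so p-values measure only the spread between these libraries, which may be technical in part. Replicates differed far beyond counting noise (chi-square per degree of freedom of at least 20.8). The spread between libraries, more than their depth, thus limits the precision, and intervals for counting error were not given. Named are all 10 members, for each role group of the pathway list up to 4 called genes with the largest change, and the 3 nearest patterns for Il1b, Tnf and Tnfsf8. A few genes that this rule names are not reported here. The members and lists were chosen with earlier results of these data known. On simulated data, the C3aR+ design found 18% of log2 changes of 1 and 94% of log2 changes of 2 (12285 genes), and the all sorted design 19% and 85% (12389 genes). The simulation gave every gene the same spread between libraries (dispersion 0.1) and changed 100 genes by each size. It held no differences between series and no libraries that stand apart, so its rates need not hold for these data. The alternatives tried were median ratio scaling, no filter or a minimum mean of 5, a pseudocount of 0.1, limma without a trend, edgeR 4.0.16, DESeq2 1.42.0, an adjusted p under 0.0005, a replicate block, no series term or only the groups compared, and each replicate left out; leaving out the 5 libraries that stand apart was added after seeing the data. Software was Python 3.11.15, numpy 2.4.6, pandas 2.3.3, scipy 1.17.1 and R 4.3.3.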

Additional observations from a re-analysis of the deposited data

Results flagged for a closer look

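In 10 groups of 5 libraries (each of the 10 genes in APP-KI;C3aRKO mice), 1 library stood far from the others for 3 genes, and each time it was replicate 1. Il18 was 36.4 there, above 12.5 to 15.8 in the other 4 libraries. Casp1 was 14.3, below 23.9 to 27.5. Tnfsf8 was 83.0, above 39.3 to 48.5. Chance flags about 1 in 20 such groups, but these 10 share the same 5 libraries and are not independent. The 3 flags can therefore not be weighed against that rate. This library had reads in 11793 genes at equal depth, the fewest of the 20, and the lowest sum of microglial markers (10777), and their part in these values was not tested.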

How the results depend on the processing

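Over all comparisons and alternatives, 2010 fold changes of members kept their direction, where called, and their side of the threshold, 40 lost and 10 gained a call, and 0 calls reversed. In C3aR+ microglia, Gsdmd was lost, leaving 0 members lower, with no filter, median ratio scaling, no trend, edgeR, DESeq2 or an adjusted p under 0.0005, which also left 1 member higher (Tnfsf8). In all sorted APP-KI against WT, 0 members were higher with no filter, no trend, edgeR or an adjusted p under 0.0005. In APP-KI;C3aRKO against C3aRKO, 1 was higher with no filter, edgeR or only the groups compared, 0 with an adjusted p under 0.0005, and 2 were lower without the 5 libraries that stand apart. DESeq2 called 1 member, Il1b, as more raised in C3aR+ than in all sorted APP-KI microglia. Leaving out each replicate gave 3 to 5 higher and 0 to 1 lower members in C3aR+ microglia, 0 to 1 higher in all sorted APP-KI against WT, 0 to 3 higher and 0 to 1 lower in APP-KI;C3aRKO against C3aRKO, and 0 in the other comparisons. Without the 5 libraries that stand apart, APP-KI and C3aRKO hold 1 each, which is assumed to vary like the other groups. Values of that fit are given as effect sizes only, though the tally of kept, lost and gained calls includes it. Over all genes, 1602 were higher and 1196 lower in C3aR+ microglia, but 605 were lower with median ratio scaling, 659 with edgeR (1770 higher) and 608 to 648 without 1 WT library. In all sorted APP-KI against WT, 275 were higher and 239 lower. The counts were 415 and 422 without APP-KI;C3aRKO replicate 1, and 152 and 66 without WT replicate 4. With limma without a trend 117 were lower, with only the groups compared 116, and with no filter 155. In APP-KI;C3aRKO against C3aRKO, 491 were higher and 369 lower. The counts were 759 and 639 without APP-KI;C3aRKO replicate 1, 275 and 168 with only the groups compared, and 121 and 30 with the replicate block. The cause of these changes was not tested. Same-numbered libraries did not deviate together in every pair (r between -0.01 and 0.04 in C3aR+, 0.09 and 0.25 in WT and APP-KI, 0.00 and 0.22 in C3aRKO and APP-KI;C3aRKO, -0.31 and 0.03 in APP-KI and APP-KI;C3aRKO), so the numbers were not taken to pair libraries. With the replicate block 3 members were higher and 1 lower in C3aR+ microglia, 1 higher in all sorted APP-KI against WT, and 0 higher in APP-KI;C3aRKO against C3aRKO (Pycard at adjusted p = 0.51, Tnfsf8 at 0.19, limma). With 3 to 5 libraries a group, changes of log2 1 were mostly missed in data simulated with a set spread, which need not hold for these libraries. Genes not called may still differ.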
